A study of Mus musculus with 24 samples.

Results

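This set holds 35 genes of the interferon response and of antigen presentation, chosen by name as genes that interferon is known to induce or that prepare and display peptides at the cell surface. The set was chosen with earlier results of these data known, so that its shares beside all genes are descriptive. All 35 were found by symbol among the 45706 genes of the count tables. They were read in 24 RNA-seq libraries of mouse intestinal organoids, epithelial cultures grown from crypts of the proximal small intestine (SI) or the colon (COL) of C57BL/6N mice. The genotypes were BraffloxV600E/+;Villin::CreERT2 (BRAF), Trp53LSL-R172H/+;Villin::CreERT2 (p53) and BraffloxV600E/+;Trp53LSL-R172H/+;Villin::CreERT2 (BRAFp53). Every culture, controls included, therefore carried a tamoxifen-activated Cre under the Villin promoter, which is active in intestinal epithelium. On libraries came from organoids given 4-hydroxytamoxifen (0.5 µM in SI, 3.5 µM in COL) for 24 h, and off libraries from organoids given ethanol. RNA was taken on day 8 in SI and on day 3 in COL, and the COL medium alone held Wnt3a and CHIR99021, so that tissue, dose, day and medium cannot be told apart. Each genotype was 1 donor culture per tissue with 2 libraries per state, and the age of the mice was not given in the sources used here. A p-value for on against off thus measures the spread between libraries of 1 culture and not between animals, and a difference between genotypes is also one between cultures.

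Interferons are secreted proteins that signal through paired surface receptors and the kinases JAK1, JAK2 and TYK2. Transcription factors, among them STAT2 and IRF9, then switch on interferon-stimulated genes, including antiviral effectors, sensors of foreign nucleic acid and the feedback inhibitor USP18. The same signals raise MHC class I, the peptide-presenting complex of a heavy chain (H2-K1, H2-D1) with beta-2 microglobulin (B2m), which the immunoproteasome (Psmb8, Psmb9) and the TAP transporter (Tap1, Tap2) supply with peptides. In intestinal epithelium these genes take part in defence against enteric viruses and in the display of antigens to T cells.

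The promoters show how genes of the set differ in the binding motifs that interferon signalling uses. The 250 bases before each RefSeq start (GRCm38.p6) were searched on both strands for GAAA-NN-GAAA (N being any base), the core of the interferon-stimulated response element, and for TTCNNNGAA, the gamma-activated site of genes that answer to interferon gamma. A promoter was given for 26 of the 35 genes, of which 9 held the first motif and 6 the second. Over all 32851 promoters of the same length in that table, 2.98% held the first motif and 7.02% the second. The stretches printed here, the 150 bases before the start read along the gene's own strand, belong to 7 genes picked from those with a match. Neither motif was found in the bases searched for Irf7, H2-K1, H2-D1, Ddx58, Ifih1 and Irf9. Capitals mark the motif matches, those of the response element reading TTTC-NN-TTTC where the match is on the opposite strand.
Isg15, chr4:156200819-156200968, minus strand: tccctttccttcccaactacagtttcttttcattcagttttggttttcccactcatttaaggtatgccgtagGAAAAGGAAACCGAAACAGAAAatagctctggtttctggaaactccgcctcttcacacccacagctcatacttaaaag
Ifit1, chr19:34640739-34640888, plus strand: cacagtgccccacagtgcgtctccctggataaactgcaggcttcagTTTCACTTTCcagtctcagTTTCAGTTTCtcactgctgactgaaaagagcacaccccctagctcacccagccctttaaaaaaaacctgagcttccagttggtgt
Rsad2, chr12:26456453-26456602, minus strand: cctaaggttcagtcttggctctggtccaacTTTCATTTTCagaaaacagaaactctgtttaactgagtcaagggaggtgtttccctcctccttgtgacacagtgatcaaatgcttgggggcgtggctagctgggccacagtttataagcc
B2m, chr2:122147537-122147686, plus strand: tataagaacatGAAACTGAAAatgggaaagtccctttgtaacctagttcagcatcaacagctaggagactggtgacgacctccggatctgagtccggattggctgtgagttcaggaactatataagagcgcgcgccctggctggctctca
Oas1a, chr5:120907526-120907675, minus strand: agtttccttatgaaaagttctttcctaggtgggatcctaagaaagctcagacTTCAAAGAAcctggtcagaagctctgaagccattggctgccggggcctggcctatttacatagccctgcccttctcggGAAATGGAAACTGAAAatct
Irf1, chr11:53769864-53770013, plus strand: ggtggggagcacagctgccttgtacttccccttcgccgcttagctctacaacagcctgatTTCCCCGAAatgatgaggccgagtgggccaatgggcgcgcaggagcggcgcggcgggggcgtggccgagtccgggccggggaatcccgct
Psmb8, chr17:34198045-34198194, plus strand: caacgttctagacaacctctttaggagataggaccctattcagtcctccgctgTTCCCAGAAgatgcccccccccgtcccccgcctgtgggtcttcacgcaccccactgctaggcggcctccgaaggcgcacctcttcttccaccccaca

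Isg15 held 3 overlapping response elements and Ifit1 a pair, while Rsad2 and B2m held 1 each. Oas1a held an overlapping pair close to its start beside a gamma-activated site, and Irf1 and Psmb8 held the gamma-activated site alone. A match describes the letters and not binding.

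The libraries held 44350747 to 78175143 counts, and a gene with 3 counts or fewer in a library was taken as at or below the limit of detection. Levels are given as CPM, the counts of a gene per 1000000 counts of its library, scaled between libraries by TMM. The summed level of 6 epithelial markers was 4849 to 17640 CPM, with all 6 above the limit in every library. It was higher in the on libraries of COL BRAF (15190 and 16040 CPM against 6553 and 6937 off), COL BRAFp53 (14340 and 17640 against 6863 and 7230), SI BRAF (10090 and 11720 against 5946 and 6060) and SI BRAFp53 (7349 and 7397 against 4849 and 5147), while it was 11260 and 15430 against 10710 and 11100 CPM in COL p53 and 5014 and 5177 against 4935 and 4961 CPM in SI p53. The part of this shift in the results was not tested. The summed level of 12 leukocyte markers was 2.89 to 6.42 CPM in COL and 3.5 to 28.8 CPM in SI, with 2 to 9 of the 12 at 0 counts in a library. In SI it was 20.4 and 28.8 CPM in BRAF on libraries and 16 and 18.2 CPM in BRAFp53 on libraries, against 3.5 to 7.56 CPM in their off libraries. Itgam and Csf1r made up most of this sum in the SI BRAF and BRAFp53 on libraries, and both share exon bases with other annotated genes. Cd3e of T cells, Adgre1 of macrophages, Itgax and Tyrobp held at most 3 counts in any library. The other 6 markers reached 111 counts (Ptprc), 63 (Ms4a1), 112 (Laptm5), 52 (Coro1a), 27 (Fcer1g) and 11 (Cd79a), and the part of such cells in the results was not tested. As a check of the labels, Trp53 rose in COL BRAFp53 (0.94 ± 0.13, adjusted p = 0.000623), COL p53 (0.94 ± 0.13, adjusted p = 0.0227) and SI BRAFp53 (0.52 ± 0.13, adjusted p = 0.0236), while in SI p53 it did not pass (0.76 ± 0.13, adjusted p = 0.194). Braf passed in no arm, and gene counts do not read either mutation itself. In bulk RNA, more cells with a transcript and more transcript per cell cannot be told apart.

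Several libraries stood apart. In the COL p53 off group, library 2 lay above library 1 for 31 of 34 genes of the set, by over 2-fold for 11 of them, with a median log2 ratio of 0.705. Among all genes, 0.981% differed over 2-fold between these libraries. This library held the highest level of the 6 COL off libraries for 24 genes of the set, so that results resting on it are given with and without it. SI BRAF on library 1 held 770 counts of the X-inactivation transcript Xist, although its culture expressed the Y-linked gene Ddx3y and the other on library held 8 counts of Xist. The SI BRAFp53 and SI p53 cultures expressed Xist (6123 to 9743 counts) and held at most 4 counts of Ddx3y, while all COL cultures expressed Ddx3y (2405 to 4690 counts), so that the cultures of a tissue differ in sex in SI. By the methods each genotype came from a single donor mouse, whereas these markers differ between the SI and the COL culture of BRAFp53 and of p53. The COL BRAF culture further held 1683 to 3525 counts of Gata4, a factor of the small intestine, against 19 to 193 in the other COL cultures, and its off libraries held 5408 and 6447 counts of Fabp1, a lipid carrier abundant in SI, against 6 to 44 in the other COL cultures. The summed level of 5 small intestine markers, these 2 included, went the other way. In off libraries it was 609.8 and 531.8 CPM in COL BRAF, 1125 and 1599 CPM in COL BRAFp53 and 975.9 and 1153 CPM in COL p53.

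**Figure D1:**
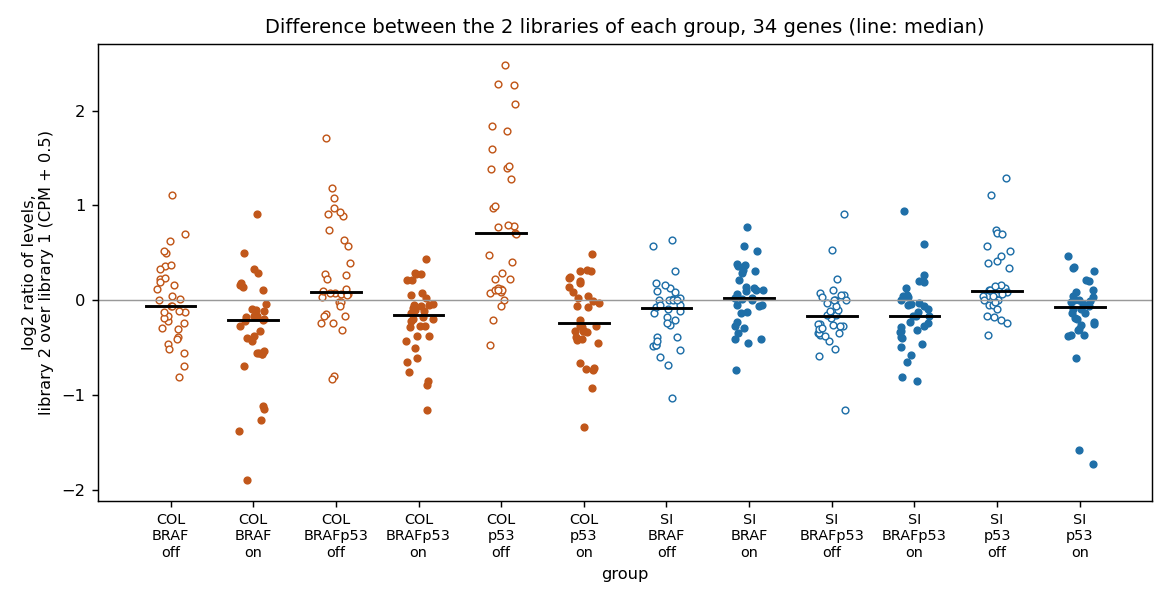
Log2 ratio of the level in library 2 over library 1 (vertical axis, from CPM plus 0.5) for 34 genes of the set (points) in each of the 12 groups (horizontal axis), with a line at each median. The COL p53 off group sits highest with a median of 0.705, and the other medians lie between -0.235 and 0.0977.

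The first question was how far organoids express the set before the alleles are switched. The genes of the MHC class I molecule itself, B2m, H2-K1 and H2-D1, were its most abundant. Per kilobase of annotated exon, the level of B2m in off organoids was 580.2 CPM in SI and 272 CPM in COL, that of H2-K1 185 and 145 CPM, and that of H2-D1 145 and 165 CPM. All other genes of the set lay below 35 CPM per kilobase, led by Ifi35 (34 CPM per kilobase) and Irf8 (14.3) in SI and by Bst2 (15.8) and Ifi27 (11.5) in COL. H2-D1 and H2-K1 did not differ beyond their spread in COL, where their levels without the length were 425 ± 169 and 425 ± 84.6 CPM (SD, n = 3 cultures). At the other end, MHC class II was nearly absent. H2-Aa, a class II chain, held at most 1 count in any library, Ciita, the master regulator of class II, at most 24, and Nlrc5, its counterpart for class I, at most 16 with 0 in 12 of the 24 libraries. Gbp2, a GTPase induced by interferon gamma, held 0 to 28 counts, with 0 in 12 libraries.

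Off organoids of the tissues were compared as 3 cultures against 3. Of the 31 genes of the set tested, 12 passed edgeR's quasi-likelihood test (adjusted p under 0.05, Benjamini-Hochberg), beside 29.6% of all genes tested, 12.6% higher in SI and 17% lower. In the set 5 genes were higher in SI, 4 of them of MHC class I, and 7 were lower, 5 of them effectors, antiviral or other. The median log2 difference, SI minus COL, was -0.74 over the set and -0.08 over all genes tested.

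B2m measured 430.1, 546 and 521 CPM in the SI BRAF, BRAFp53 and p53 cultures and 214, 254 and 235 CPM in the same order in COL, with no overlap and a log2 difference of 1.06 ± 0.15 (SE; adjusted p = 0.00437). Psmb9, an immunoproteasome subunit, stood at 7.28, 11.4 and 10.5 CPM in SI and 2.55, 1.84 and 2.5 CPM in COL (2.04 ± 0.27, adjusted p = 0.00341). Psmb8, its partner, stood at 1.01, 1.46 and 2.08 CPM against 0.571, 0.512 and 0.533 CPM (1.48 ± 0.37, adjusted p = 0.0246). All 3 genes were higher in every SI culture than in any COL culture. Tap1, a chain of the peptide transporter, passed as well (0.67 ± 0.20, adjusted p = 0.0443). The constitutive proteasome subunits that the immunoproteasome replaces were also higher in SI, Psmb5 by 0.83, Psmb6 by 1.002 and Psmb7 by 0.66 on the log2 scale. Ifi35, an interferon-induced leucine zipper protein, stood at 58.2, 56.8 and 61.1 CPM in SI and 18.5, 13.4 and 18 CPM in COL (1.78 ± 0.16, adjusted p = 0.00128).

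Among the genes higher in COL, the RNA-binding effectors Ifit1 and Ifit2 differed most. Ifit2 measured 4.01, 5.17 and 5.57 CPM in the COL BRAF, BRAFp53 and p53 cultures and 0.14, 0.35 and 0.341 CPM in SI (-4.13 ± 0.41, adjusted p = 0.00157). Ifit1 measured 4.82, 12.4 and 28 CPM in COL and 1.21, 0.865 and 1.84 CPM in SI (-3.57 ± 0.66, adjusted p = 0.00913). Neither overlapped between tissues. Ifit3 of the same family did not pass (-1.67, adjusted p = 0.0882), and measured -0.66 without COL p53 off library 2 (adjusted p = 0.239). Rtp4, a chaperone of membrane receptors, measured 1.47, 3.41 and 5.67 CPM in COL and 0.264, 0.467 and 1.13 CPM in SI (-2.55 ± 0.71, adjusted p = 0.0345). Ifi44 measured 1.02, 0.14 and 0.801 CPM in COL and 0.128, 0.107 and 0.0653 CPM in SI (-2.75 ± 0.77, adjusted p = 0.0357). These levels did not overlap either, although Ifi44 of the COL BRAFp53 culture came close to SI. The remaining calls were Cd74, the chaperone of class II (-2.46), Xaf1 (-1.58) and Ifih1, which encodes the RNA sensor MDA5 (-0.81). Without COL p53 off library 2, 8 genes passed beside 29.1% of all genes, and Rtp4 (-1.97, adjusted p = 0.0513), Ifi44 (-2.21, adjusted p = 0.0911), Cd74 (-1.76, adjusted p = 0.0513) and Xaf1 (-1.05, adjusted p = 0.0646) no longer did. B2m, Psmb9, Ifi35, Ifit1 and Ifit2 passed in every fit without 1 culture, whereas the number of calls was 6 without the SI BRAFp53 or the SI p53 culture and 19 without the COL BRAF culture. The shares of all genes in the fits without a culture are not given, so that those counts were not set against a background. With the genotype of the culture as a term, 7 genes passed beside 19.5% of all genes. Ifih1, Psmb8, Tap1, Ifi44, Cd74 and Xaf1 were lost in that fit (adjusted p from 0.0656 to 0.11) and Rsad2 was gained.

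**Figure D2:**
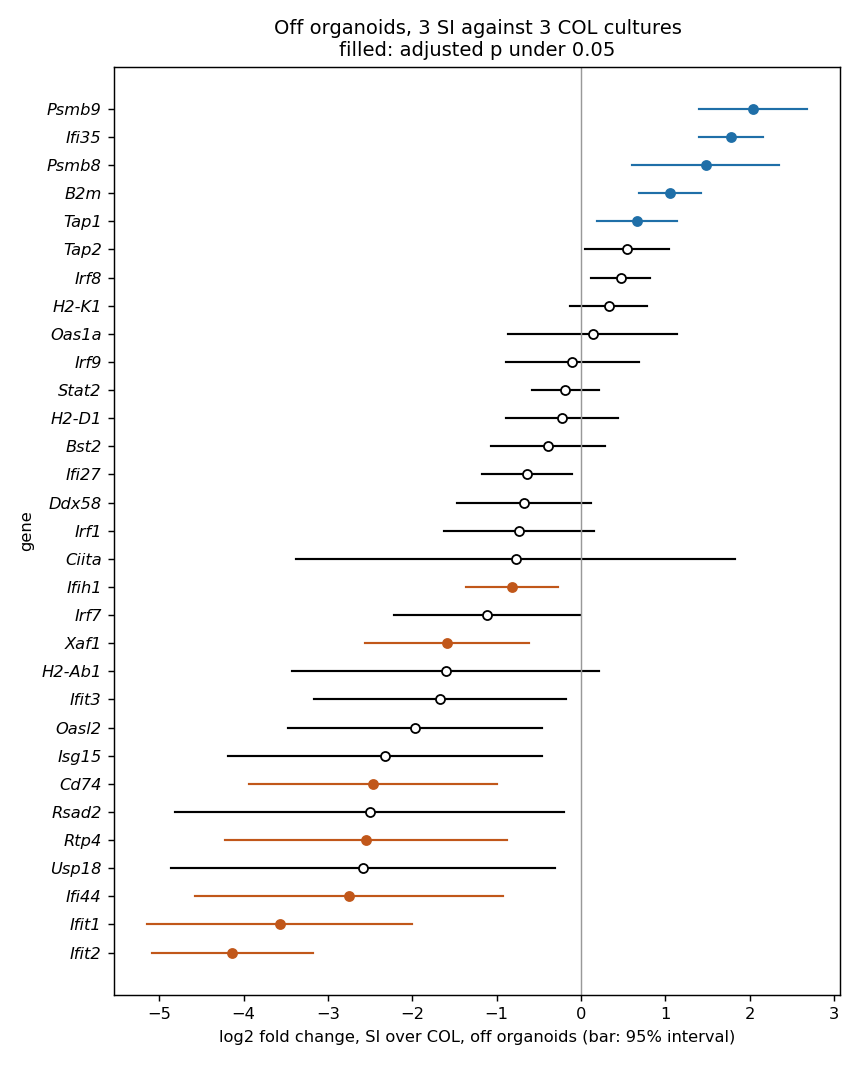
Log2 fold change of SI over COL in off organoids (horizontal axis, with 95% interval) for the 31 genes tested (vertical axis), 3 cultures against 3, filled where the adjusted p was under 0.05. Psmb9 (2.04), Ifi35 (1.78), Psmb8 (1.48) and B2m (1.06) lie on the right, and Ifit1 (-3.57) and Ifit2 (-4.13) on the far left.

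Off cultures also differed within COL. Of 34 genes tested, 15 differed among the 3 COL cultures, beside 32.1% of all genes, whereas in SI 2 of 32 differed, Irf9 and Rsad2, beside 6.92%. The SI share, 6.25%, was thus near the background, and the SI number moved with the processing, as listed in the last section. Irf7, the factor that amplifies the type I response, measured 14.5 and 12.8 CPM in the COL BRAF off libraries, 26.4 and 28.3 CPM in BRAFp53 and 49.1 and 65.2 CPM in p53 (adjusted p = 0.000366). Irf1, a factor induced by interferon, followed the same order at 17.2 and 21.8, 34.6 and 41.6, and 56.9 and 66.4 CPM (adjusted p = 0.000325). The cultures did not overlap for either gene. The summed level of 5 markers of the colon region ran in the same order, at 1360 and 1379 CPM in BRAF, 3542 and 4377 CPM in BRAFp53 and 13770 and 18150 CPM in p53 off libraries, and its part in these differences was not tested. Without COL p53 off library 2, 5 genes passed, Irf1, Irf7, the sensors Ddx58 and Zbp1, and Bst2, beside 18% of all genes. In SI, Irf7 ranged from 11.6 to 17.8 CPM and Irf1 from 22.4 to 29.4 CPM over the 6 off libraries.

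The next comparison asked what activation of the BRAFV600E allele did to the set. In SI BRAF, 16 of 32 genes tested passed, 15 higher and 1 lower, beside 31.7% of all genes (17.5% up, 14.2% down). The median log2 fold change was 0.75 in the set and -0.06 over all genes tested. By role, 3 of 5 transcription factors, 1 of 2 genes of the ISG15 system, 6 of 12 effectors and 2 of 2 sensors rose, and of MHC class I 3 of 8 rose and 1 fell. In COL BRAF, 11 of 34 passed, 10 higher and 1 lower, beside 19.9% of all genes (10.3% up, 9.61% down), with medians of 0.57 and -0.01. Without 1 library this number ranged from 4 to 12 beside 9.59% to 12.1% of all genes. It was 18 with the arm fitted alone, beside 25.4% of all genes, and 20 with no count minimum, beside 14.7%. There 2 of 5 transcription factors, 2 of 2 genes of the ISG15 system, 4 of 13 effectors and 1 of 3 sensors rose, and of MHC class I 1 of 8 rose and 1 fell. Both tissues called 7 genes, which is 7 of the 16 in SI and 7 of the 11 in COL, with Irf7, Isg15, Ifi27, Oasl2, Rtp4 and H2-K1 higher in each and B2m in opposite directions. Of the genes tested in both tissues, the shared calls were 43.8% of the SI calls and 70% of the COL calls in the set, and 36.8% and 54% over all genes.

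Among the transcription factors, Irf7 had the largest change. It measured 16.9 and 11.6 CPM in SI BRAF off and 72.4 and 79.6 CPM in on libraries (2.37 ± 0.19, adjusted p = 1.28e-06). In COL BRAF it measured 14.5 and 12.8 CPM off and 77.4 and 52.1 CPM on (2.24 ± 0.25, adjusted p = 0.000147). In both tissues every on library was over 3-fold above every off library. Irf9, a DNA-binding partner of STAT2, rose in COL (1.06 ± 0.28, adjusted p = 0.0181), while its change in SI did not pass (0.45 ± 0.18, adjusted p = 0.0753), and neither did the difference between the tissues (-0.57 ± 0.35, adjusted p = 0.362). Stat2 stood at 17.8 and 19.8 CPM off and 27.6 and 36.2 CPM on in SI (0.71 ± 0.16, adjusted p = 0.00427), and at 17.6 and 20.2 CPM off and 16.9 and 20.7 CPM on in COL (-0.01 ± 0.15). Irf1 stood at 23.5 and 22.4 CPM off and 35.8 and 41.6 CPM on in SI (0.71 ± 0.14, adjusted p = 0.00226), and at 17.2 and 21.8 CPM off and 24.4 and 16.4 CPM on in COL (0.06 ± 0.19). Both were thus higher in the SI on libraries without overlap, and their COL groups overlapped. Irf8, a factor known from myeloid cells and abundant here, passed in neither tissue (-0.07 ± 0.11 in SI, -0.49 ± 0.24 in COL).

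Isg15, a ubiquitin-like protein attached to other proteins after interferon, and Usp18, the enzyme that removes it and blocks the receptor, form the feedback arm. Isg15 rose from 0.687 and 0.405 to 6.92 and 4.1 CPM in COL BRAF (3.32 ± 0.73, adjusted p = 0.00725) and from 0.509 and 0.227 to 2.36 and 2.11 CPM in SI BRAF (2.58 ± 0.49, adjusted p = 0.00146). Usp18 measured 0.14 and 0.14 CPM in the COL off libraries and 3.48 and 0.572 CPM in the on libraries (3.84 ± 1.13, adjusted p = 0.0325). Its on libraries differed from each other by more than the lower of them from off, and limma-voom did not call it. In SI it stood at 0.185 and 0.349 CPM off and 1.09 and 1.87 CPM on, above off but not past the test (2.39 ± 1.06, adjusted p = 0.105).

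In SI BRAF the 4 called genes with the largest changes were all effectors, antiviral or other. Rsad2, which encodes the antiviral enzyme viperin, held 0 and 2 counts in SI BRAF off and 79 and 57 counts in on libraries, an 86.4-fold ratio with a 95% counting interval of 23.5 to 720 (adjusted p = 9.09e-05). In COL it stood at 0.378 and 0.405 CPM off and 2.26 and 1.6 CPM on (2.29 ± 0.92, adjusted p = 0.105). Both groups were free of overlap, with the test passed in SI. Oasl2, of the oligoadenylate synthetase family, rose from 1.04 and 0.611 to 11.7 and 8.66 CPM in SI (3.59 ± 0.72, adjusted p = 0.00194) and from 2.9 and 2.62 to 25.2 and 11.1 CPM in COL (2.71 ± 0.65, adjusted p = 0.0118). Ifit1 rose in SI from 1.44 and 0.978 to 13.5 and 13.8 CPM (3.46 ± 0.39, adjusted p = 2.49e-05). In COL it stood at 6.26 and 3.37 CPM off and 20.2 and 8.12 CPM on (1.55 ± 0.53, adjusted p = 0.0608), so that the SI on libraries lay within the range of the COL on libraries. Rsad2, Isg15 and Ifit1 are among the genes with response elements printed above, and in Oasl2 none was found in the bases searched. Rtp4 rose from 0.44 and 0.0873 to 3.98 and 2.19 CPM in SI (3.56 ± 0.83, adjusted p = 0.00527) and from 1.56 and 1.39 to 11.8 and 4.25 CPM in COL (2.45 ± 0.64, adjusted p = 0.0184). Ifi27, a small mitochondrial protein, rose by 1.25 ± 0.17 in SI and 0.94 ± 0.17 in COL, and Ifi35 by 0.40 ± 0.11 in SI.

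Of the 12 effectors tested in SI BRAF, 4 had a negative log2 fold change and none of these passed. Oas1a, which makes the messenger that activates RNase L, rose in COL BRAF from 3.52 and 5.7 to 17.9 and 15.5 CPM (1.85 ± 0.33, adjusted p = 0.00215). In SI BRAF it stood at 9.35 and 9.01 CPM off and 7.48 and 5.35 CPM on, lower in both on libraries but not past the test (-0.55 ± 0.21, adjusted p = 0.0551). Without the on library that held Xist it passed as lower (-0.82 ± 0.23, adjusted p = 0.0164). Ifit2 lay lower in the COL on libraries, at 3.45 and 4.58 CPM off and 1.16 and 1.33 CPM on (-1.69 ± 0.58, adjusted p = 0.0609), and overlapped in SI (-2.51 ± 1.51, adjusted p = 0.235). Ifit3, Ifi44, Xaf1 and Bst2 passed in neither tissue, with log2 fold changes of 1.82, 0.73, 1.39 and 0.06 in COL and 0.62, -0.15, 0.86 and -0.16 in SI. Oas1a shares near-identical sequence with Oas1g, and Ifit3 with Ifit3b, so that their reads may have been split.

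Of the nucleic acid sensors, Ddx58, which encodes RIG-I, rose in SI from 8.5 and 9.03 to 19.6 and 20.5 CPM (1.15 ± 0.20, adjusted p = 0.000757) and Ifih1 from 16.6 and 11.8 to 25.2 and 25.5 CPM (0.80 ± 0.22, adjusted p = 0.0128). In COL they measured 0.60 ± 0.23 and 0.40 ± 0.20 on the log2 scale without passing. Zbp1, a sensor of Z-form nucleic acid that can start necroptosis, held 3 and 0 counts in COL BRAF off and 38 and 12 counts in on libraries, a 19-fold ratio with a counting interval of 6.14 to 95.3 (adjusted p = 0.0187), a call that limma-voom did not make. In SI it held at most 6 counts and was not tested.

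**Figure D3:**
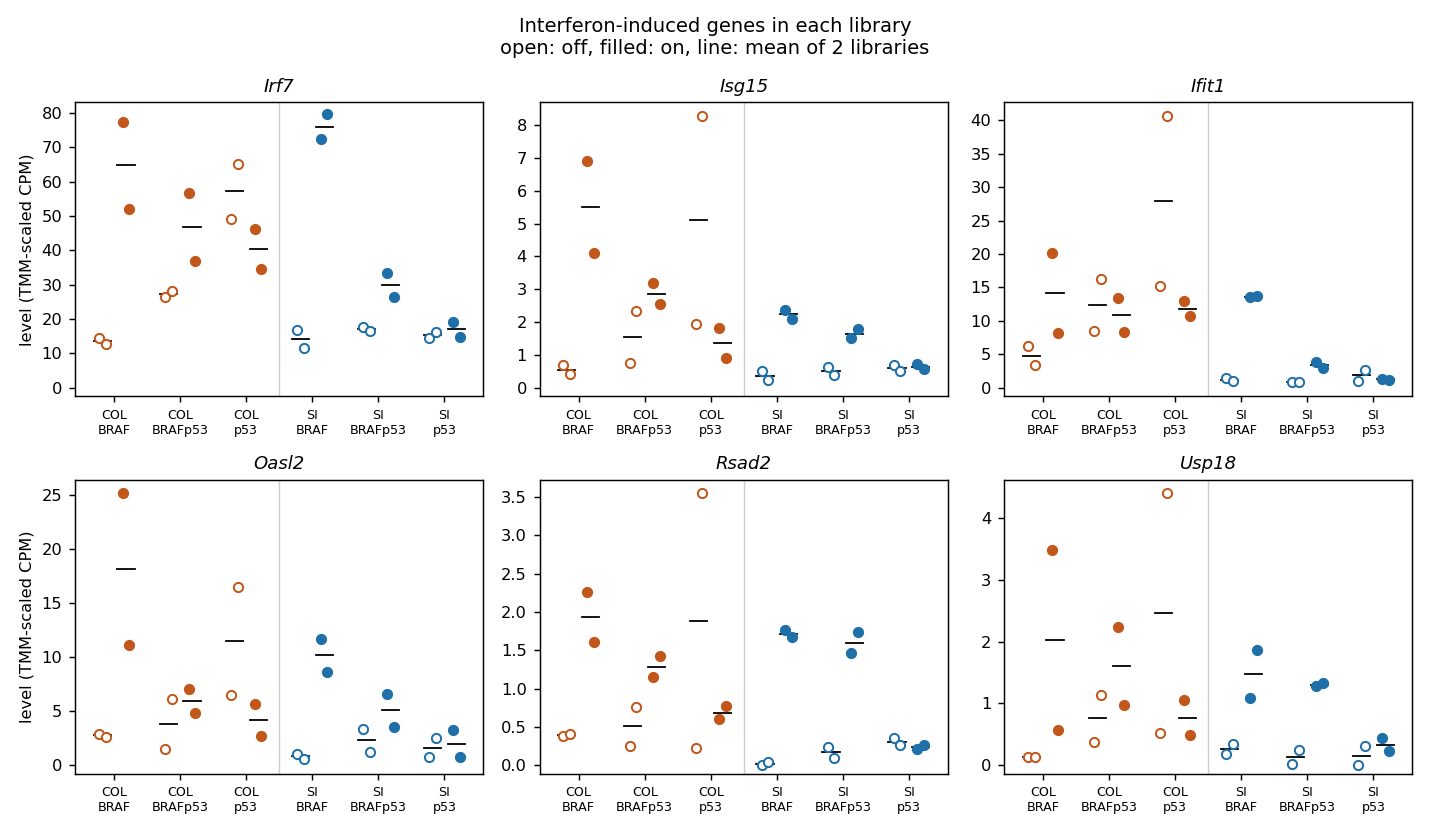
Levels (vertical axes, CPM scaled by TMM) of Irf7, Isg15, Ifit1, Oasl2, Rsad2 and Usp18 in the 24 libraries, by culture (horizontal axes), with off open, on filled and a line at the mean of 2 libraries. In both BRAF cultures the on libraries lie above the off libraries for all 6 genes, and COL p53 off library 2 lies above every other library for Isg15, Ifit1, Rsad2 and Usp18.

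In MHC class I, the BRAF responses of B2m and H2-K1 differed between the tissues, and those of the other 6 genes did not pass that test. H2-K1 rose from 479 and 448 to 1037 and 1295 CPM in SI BRAF (1.29 ± 0.11, adjusted p = 2.2e-06) and from 375 and 359.8 to 556 and 519.6 CPM in COL BRAF (0.55 ± 0.14, adjusted p = 0.0169). H2-D1 rose in SI from 334 and 322 to 756 and 919.8 CPM (1.31 ± 0.11, adjusted p = 2.12e-06) and stood at 334 and 243 CPM off and 495 and 458 CPM on in COL (0.72 ± 0.31, adjusted p = 0.123). B2m, the light chain of both, rose in SI from 487 and 373 to 827 and 798 CPM (0.87 ± 0.13, adjusted p = 0.000199) but fell in COL from 219 and 209 to 142 and 127 CPM (-0.67 ± 0.13, adjusted p = 0.00443). On and off libraries did not overlap in either direction. The heavy chains are near-identical to each other and to H2-Q genes, so that reads may have been split among them.

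No gene of peptide supply was called higher. Psmb8 fell in SI BRAF from 0.718 and 1.31 to 0.401 and 0.234 CPM (-1.70 ± 0.48, adjusted p = 0.015), a call not made by limma-voom or with the arm fitted alone. Psmb9, Tap1 and Tap2 did not pass in SI (-0.46 ± 0.27, 0.35 ± 0.17 and 0.18 ± 0.24) or COL (-0.92 ± 0.40, 0.08 ± 0.34 and 0.35 ± 0.34). Psmb5, Psmb6 and Psmb7 measured 0.07, 0.10 and -0.03 in SI and -0.01, -0.04 and -0.04 in COL, with none past the test. Nlrc5 was at 0 and 0 counts off and 3 and 16 counts on in SI, which is at least 4.39-fold higher when off is set to 3 counts per library, without passing (adjusted p = 0.0777). In COL it held 0 and 14 counts off and 14 and 16 counts on. Psmb8, Psmb9, Tap1 and Tap2 share exon bases with genes on the other strand, and the counting was not stated to use strand.

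In MHC class II no gene passed in either BRAF arm. H2-Ab1 measured 0.981 and 0.997 CPM off and 0.316 and 1.03 CPM on in COL, and 3 and 1 counts off and 5 and 4 counts on in SI. Cd74 held 14 and 20 counts off and 1 and 4 counts on in COL (-2.501 ± 1.02, adjusted p = 0.111), and 5 and 10 counts off and 11 and 3 counts on in SI. Ciita held 24 and 1 counts off and 11 and 5 counts on in COL, and 11 and 0 counts off and 0 and 5 counts on in SI. At such counts a small difference was not detectable, and Gbp2 with 7 and 1 counts off and 7 and 0 counts on in COL was no better measured.

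**Figure D4:**
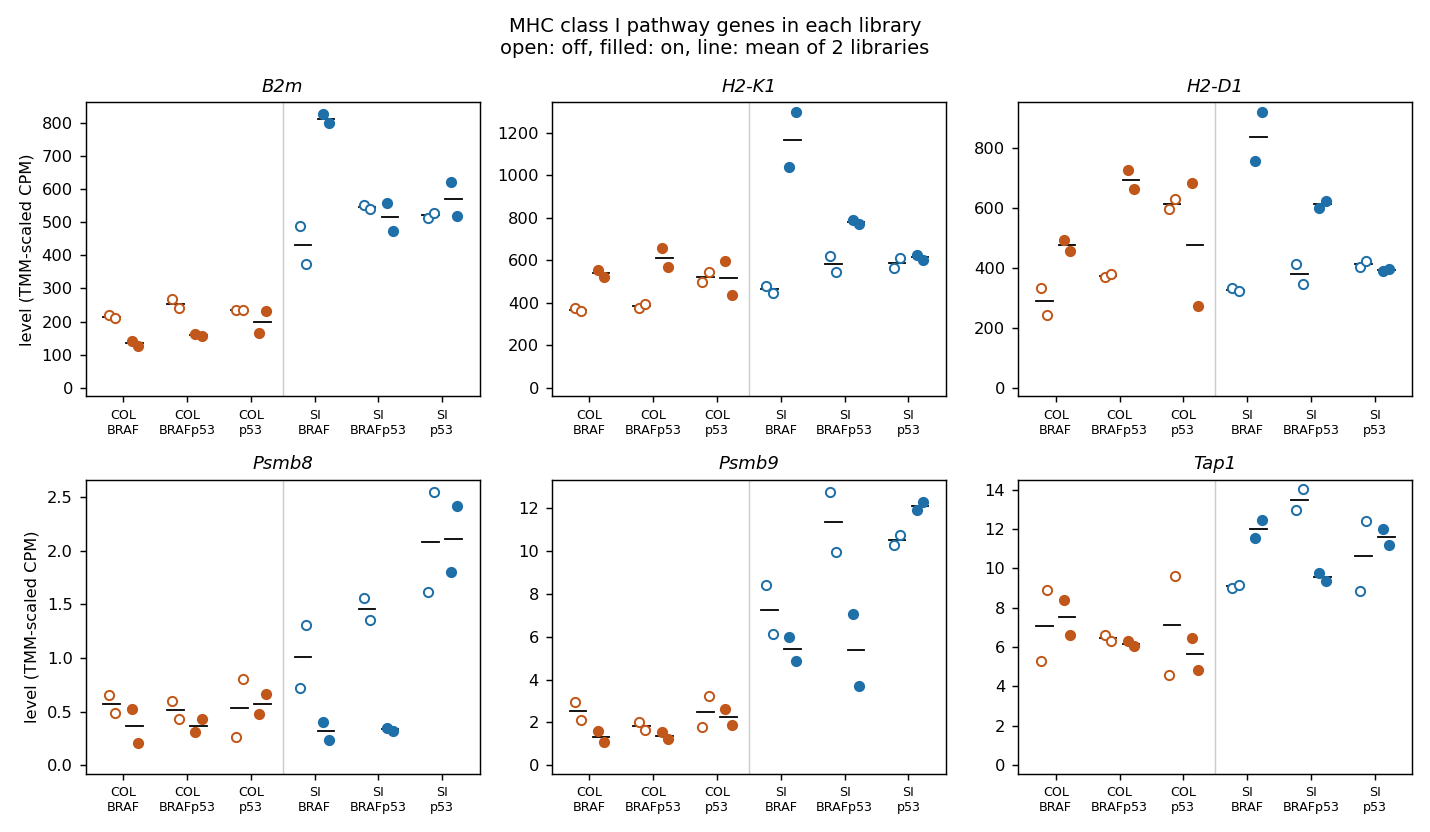
Levels (vertical axes, CPM scaled by TMM) of B2m, H2-K1, H2-D1, Psmb8, Psmb9 and Tap1 in the 24 libraries, by culture (horizontal axes), with off open, on filled and a line at the mean of 2 libraries. The SI BRAF on libraries lie highest for B2m (827 and 798 CPM) and H2-K1 (1037 and 1295 CPM), while B2m lies lower in the on than in the off libraries of all 3 COL cultures, having passed the test in COL BRAF and COL BRAFp53.

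Leaving out 1 library at a time tested how far these calls rested on a single library. In SI BRAF, Irf1, Irf7, Isg15, Ifit1, Oasl2, Rsad2, Ifi27, Ddx58, B2m, H2-K1 and H2-D1 passed in all 4 such fits. Without off library 2, 12 calls were left (Rtp4, Ifih1, Ifi35 and Psmb8 lost), and without on library 2, 13 (Stat2, Ifi35 and Psmb8 lost). Without the on library that held Xist, 17 genes passed beside 29.7% of all genes, all 16 calls and Oas1a included. In COL BRAF, Irf7, Ifi27, Oas1a and B2m passed in all 4 fits. Without off library 1, 6 calls were left, without off library 2, 4, and without on library 1, 5, with Irf9, Oasl2, Usp18, H2-K1 and Rtp4 lost in all 3 of these. Isg15 was lost without off library 2, and Zbp1 without off library 2 or on library 1.

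The responses of both BRAF cultures were then set against each other in 1 fit of all libraries. Of 34 genes, 4 differed, beside 10.7% of all genes tested (7.4% more positive in SI, 3.31% more negative), so that the share in the set, 11.8%, was near the background. B2m differed by 1.59 ± 0.20 (SI minus COL, adjusted p = 6.46e-05), H2-K1 by 0.78 ± 0.18 (adjusted p = 0.00967) and Stat2 by 0.77 ± 0.22 (adjusted p = 0.033), all more positive in SI. Oas1a differed the other way (-2.37 ± 0.41, adjusted p = 0.000821). Irf7 did not pass, with a difference of 0.17 and a 95% interval of -0.52 to 0.87, nor did Ifi27 (0.35, interval -0.15 to 0.86). B2m and Oas1a passed in every fit without a library, and they alone passed without SI BRAF off library 2 or SI BRAF on library 2.

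Organoids that carried p53R172H beside BRAFV600E formed the next arms. In SI BRAFp53, 10 of 32 genes passed, 6 higher and 4 lower, beside 11.5% of all genes (6.98% up, 4.53% down), with medians of 0.22 in the set and -0.03 over all genes. In COL BRAFp53, 6 of 34 passed, 3 in each direction, which is 17.6% beside 17.7% of all genes (9.95% up, 7.76% down), with medians of 0.40 and -0.04.

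All 6 genes that rose in SI BRAFp53 were among the 15 called higher in SI BRAF. Of all genes tested, 17.5% were called higher in SI BRAF, and the overlap of these arms over all genes was not computed. Rsad2 rose from 0.234 and 0.0968 to 1.46 and 1.73 CPM (3.22 ± 0.64, adjusted p = 0.00521). Ifit1 rose from 0.84 and 0.891 to 3.85 and 2.97 CPM (1.94 ± 0.39, adjusted p = 0.00557) and Isg15 from 0.625 and 0.387 to 1.5 and 1.8 CPM (1.67 ± 0.47, adjusted p = 0.0376). Irf7 rose from 17.8 and 16.5 to 33.4 and 26.4 CPM (0.76 ± 0.18, adjusted p = 0.0151). In each of these 4 genes the on libraries lay above the off libraries. H2-D1 rose from 412 and 348 to 601 and 624 CPM (0.65 ± 0.11, adjusted p = 0.00163) and H2-K1 from 621 and 546 to 788 and 768 CPM (0.38 ± 0.11, adjusted p = 0.0388). B2m overlapped between states at 551 and 541 CPM off and 557 and 473 CPM on, and so did Irf1 at 25 and 29.4 CPM off and 29.6 and 26.2 CPM on.

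The genes that fell were 2 of the immunoproteasome and 2 effectors. Psmb8 fell from 1.56 and 1.36 to 0.35 and 0.323 CPM (-2.15 ± 0.46, adjusted p = 0.0086) and Psmb9 from 12.8 and 9.95 to 7.06 and 3.69 CPM (-1.12 ± 0.27, adjusted p = 0.0149). The constitutive subunits Psmb5, Psmb6 and Psmb7 measured 0.28, 0.04 and 0.05 without passing. Oas1a fell from 8.97 and 8.6 to 5.97 and 4.42 CPM (-0.80 ± 0.21, adjusted p = 0.0232) and Ifi27 from 11.8 and 9.08 to 7.24 and 6.78 CPM (-0.61 ± 0.17, adjusted p = 0.038), so that Ifi27 changed in opposite directions in SI BRAF and SI BRAFp53. Limma-voom and the arm fitted alone did not call Ifi27 here. H2-D1 alone passed in all 4 fits without a library, which left 3 calls without off library 1, 5 without off library 2, 6 without on library 1 and 4 without on library 2. Isg15 and H2-K1 passed in none of them.

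In COL BRAFp53, Irf7 rose from 26.4 and 28.3 to 56.8 and 36.9 CPM (0.78 ± 0.24, adjusted p = 0.0443), H2-K1 from 376 and 394 to 658 and 566 CPM (0.67 ± 0.14, adjusted p = 0.00674) and Ifi27 from 15 and 15.8 to 28.2 and 20.8 CPM (0.67 ± 0.17, adjusted p = 0.0174). B2m fell, from 268 and 239.9 to 162 and 157 CPM (-0.67 ± 0.13, adjusted p = 0.00536). Ifit2 fell from 3.95 and 6.39 to 0.441 and 0.648 CPM (-3.25 ± 0.62, adjusted p = 0.00402) and Irf8 from 62.2 and 67.3 to 34 and 41.3 CPM (-0.78 ± 0.25, adjusted p = 0.0462). No on library overlapped an off library for these 6 genes. B2m, H2-K1 and Ifit2 passed in all 4 fits without a library and Irf8 in none, and 3 calls were left without off library 1, off library 2 or on library 1. Isg15 measured 0.752 and 2.35 CPM off and 3.18 and 2.55 CPM on and did not pass, nor did Irf1 at 34.6 and 41.6 CPM off and 45.2 and 39.9 CPM on. Psmb5, Psmb6 and Psmb7 rose here by 0.74, 0.54 and 0.56, while Psmb8 (-0.47 ± 0.68) and Psmb9 (-0.40 ± 0.39) did not pass.

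The difference between the responses of the BRAFp53 and BRAF cultures was tested within each tissue. In SI, 8 of 32 genes had a lower response in BRAFp53 and 0 a higher one, beside 8.2% of all genes tested (1.93% higher, 6.28% lower), with a median of -0.66 in the set and 0.03 over all genes. They were Ifi27 (-1.86 ± 0.25), Irf7 (-1.61 ± 0.26), B2m (-0.996 ± 0.18), H2-K1 (-0.91 ± 0.15), Tap1 (-0.89 ± 0.24), Irf1 (-0.71 ± 0.20), H2-D1 (-0.65 ± 0.15) and Ifi35 (-0.59 ± 0.15), with adjusted p from 0.000599 to 0.0494. All 8 passed without the SI BRAF on library that held Xist, beside 11.8% of all genes. Ifi27, Irf7, B2m and H2-K1 passed in all 8 fits without a library, and 4 of the 8 calls were left without SI BRAF off library 2, SI BRAF on library 2, SI BRAFp53 off library 1 or SI BRAFp53 on library 1. Rsad2 did not pass (-3.03 ± 1.07, adjusted p = 0.108), its on libraries measuring 1.76 and 1.67 CPM in BRAF and 1.46 and 1.73 CPM in BRAFp53.

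In COL, 0 of 34 genes differed between the BRAFp53 and BRAF responses by edgeR, beside 0.907% of all genes (0.532% higher, 0.374% lower). An unadjusted p under 0.05 was found for 10 genes, limma-voom called 0, and DESeq2 called 2, Irf7 and Rtp4, without a share of all genes beside these counts. With no count minimum edgeR called 8, all lower in BRAFp53, beside 4.31% of all genes. Between the tissues, the BRAFp53 responses differed for 1 of 34 genes, Ifi27 (-1.24 ± 0.24, adjusted p = 0.00795, SI minus COL), beside 3.52% of all genes (2.13% more positive in SI, 1.39% more negative). This call was lost without SI BRAFp53 off library 1 or on library 2. The second allele and the culture that carried it cannot be told apart in these comparisons.

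**Figure D5:**
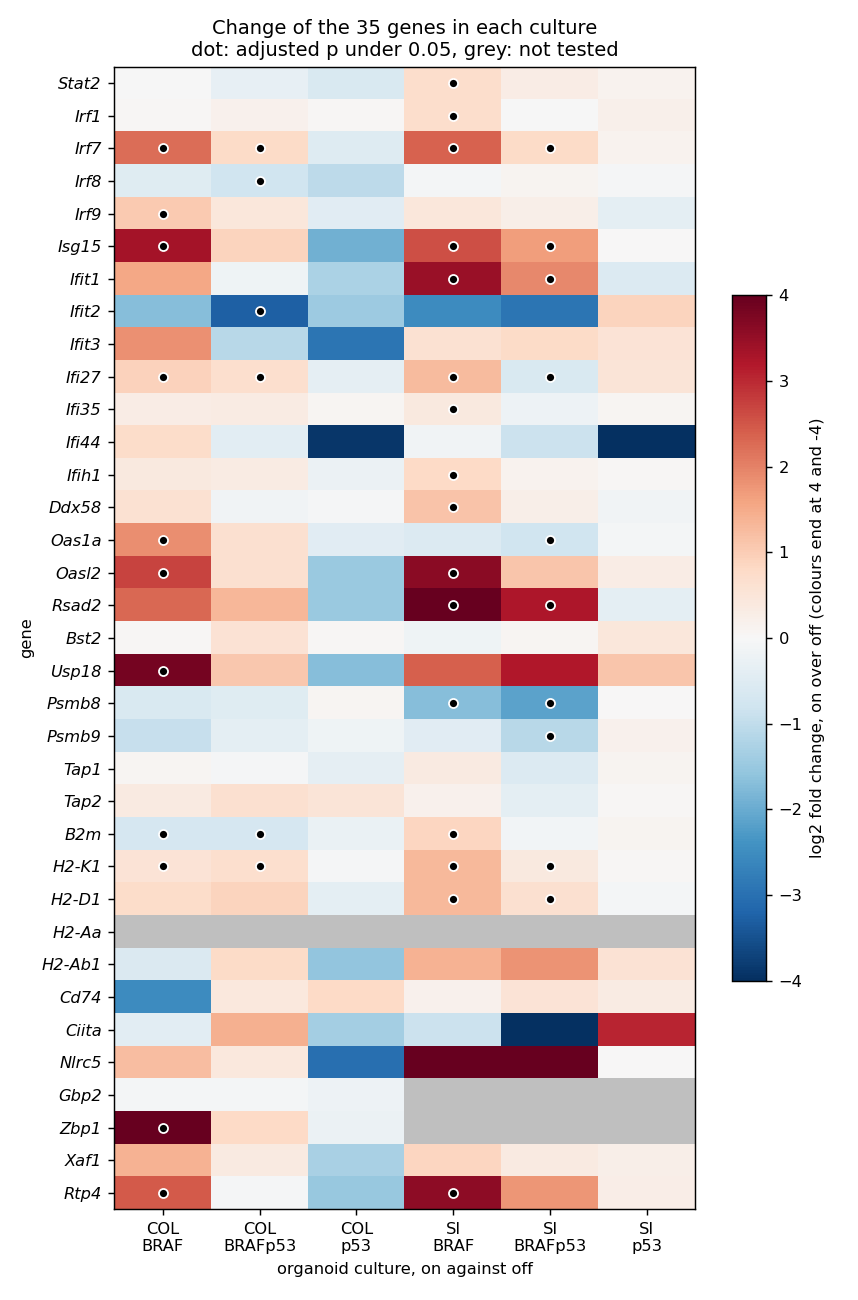
Log2 fold change of on over off (colour, with the scale ending at 4 and -4) for the 35 genes (vertical axis) in the 6 cultures (horizontal axis), with a dot where the adjusted p was under 0.05 and grey where a gene was not tested. There are 16 dots in SI BRAF, 11 in COL BRAF, 10 in SI BRAFp53, 6 in COL BRAFp53 and 0 in either p53 culture.

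Activation of p53R172H alone was read in the last arms. In SI p53, 0 of 32 genes passed edgeR's test, beside 0% of all genes tested, and DESeq2 and limma-voom called 0. An unadjusted p under 0.05 was found for 3, a count set beside no share of all genes. The medians were 0.11 in the set and 0.00 over all genes. Irf7 stood at 14.4 and 16.1 CPM off and 19.3 and 14.8 CPM on, and Irf1 at 23.3 and 22.6 CPM off and 29.8 and 24.1 CPM on. B2m stood at 513 and 529 CPM off and 621 and 519 CPM on, with a 95% interval of the log2 fold change of -0.17 to 0.39, and H2-K1 at 565 and 609 CPM off and 626 and 602 CPM on. States overlapped for Irf7, B2m and H2-K1. Cd74 held 9 and 0 counts off and 0 and 10 counts on, and H2-Ab1 13 and 42 counts off and 46 and 31 counts on.

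In COL p53, 0 of 34 passed, beside 0.142% of all genes (0.0316% up, 0.111% down). Of the 34, 28 had a negative log2 fold change, with a median of -0.45 in the set and 0.00 over all genes. An unadjusted p under 0.05 was found for 10, and DESeq2 called 4 (Stat2, Irf8, Ifit3 and Ifi44), without a share of all genes beside either count. Limma-voom called 0, and with no count minimum edgeR called 9, all lower, beside 1.87% of all genes. Isg15 stood at 1.95 and 8.29 CPM off and 1.83 and 0.90 CPM on, and Ifit1 at 15.3 and 40.7 CPM off and 12.9 and 10.7 CPM on, with off library 2 the high value in both. Without that library 17 of the 34 were negative, the median was -0.04 and 0 passed, beside 0.233% of all genes. Irf7 stood at 49.1 and 65.2 CPM off and 46.2 and 34.5 CPM on, and Irf1 at 56.9 and 66.4 CPM off and 65.5 and 64 CPM on. Irf8 measured 78.4 and 56.3 CPM off and 40.9 and 24.7 CPM on (-1.06 ± 0.25, adjusted p = 0.147), and -1.29 ± 0.27 without off library 2 (adjusted p = 0.0942). On libraries of Irf7 and Irf8 thus lay below the off libraries. H2-K1 stood at 499.6 and 544 CPM off and 597 and 436 CPM on, and B2m at 234 and 235 CPM off and 165 and 231 CPM on. The on libraries differed more from each other than the states did for H2-D1, at 598 and 629 CPM off and 686 and 272 CPM on. Cd74 held 21 and 115 counts off and 117 and 125 counts on, and H2-Ab1 48 and 36 counts off and 10 and 19 counts on.

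Over the 6 arms, 23 of the 34 genes tested passed in at least 1, which is 67.6% beside 42.6% of all genes tested. The other 12 of the 35, H2-Aa not tested among them, were Ifit3, Ifi44, Xaf1, Bst2 and Gbp2 among the effectors, Tap1, Tap2 and Nlrc5 on the side of class I, and all 4 class II genes. Bst2, an antiviral membrane anchor whose promoter held a pair of response elements, was well measured, yet its log2 fold changes were 0.06, 0.57 and 0.03 in COL BRAF, BRAFp53 and p53 and -0.16, 0.08 and 0.45 in SI. Irf7 and H2-K1 passed in both BRAF and both BRAFp53 arms, always higher in on libraries. The 3 genes higher in both COL BRAF and COL BRAFp53 were Irf7, H2-K1 and Ifi27. Overlaps between BRAF and BRAFp53 arms over all genes were not computed.

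A further 95 genes of the same pathway, also chosen with earlier results of these data known, were read to place the set. Transcripts of the 9 interferon genes on this list were near 0, with 0 counts of Ifng, Ifna1 and Ifna4 in all libraries and at most 7 of Ifnb1, 11 of Ifne, 10 of Ifnl3, 5 of Ifna2 and 3 of Ifnl2, while Ifnk held 3 to 26. Interferon genes outside this list were not read. Of 6 receptor chains, 5 rose in SI BRAF (83.3%, beside 17.5% of all genes). Ifnlr1 of the interferon lambda receptor rose by 1.53 ± 0.28 (adjusted p = 0.00111), its partner Il10rb by 0.67 ± 0.12, Ifngr1 of the interferon gamma receptor by 1.07 ± 0.13 (adjusted p = 3.17e-05), Ifngr2 by 0.55 ± 0.12 and Ifnar1 of the type I receptor by 0.58 ± 0.14, while Ifnar2 measured -0.14 ± 0.37. In COL, Ifnlr1 passed in BRAF (0.81 ± 0.24, adjusted p = 0.0328) and BRAFp53 (0.89 ± 0.24, adjusted p = 0.0236), and the other 5 chains did not, so that 16.7% were called higher in each beside 10.3% and 9.95% of all genes. No receptor chain passed in SI BRAFp53 or in the p53 arms.

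Of 34 further effectors, 12 rose and 2 fell in SI BRAF (31 tested), 12 rose and 2 fell in COL BRAF (33 tested), 3 rose and 1 fell in SI BRAFp53 (31 tested), 7 rose and 1 fell in COL BRAFp53 (33 tested), and 0 passed in the p53 arms. The shares called were thus 45.2%, 42.4%, 12.9% and 24.2% beside 31.7%, 19.9%, 11.5% and 17.7% of all genes in the same order, so that the share in SI BRAFp53 was near the background. In SI BRAF the synthetases Oas3 (5.14 ± 1.41, adjusted p = 0.0136) and Oasl1 (3.75 ± 0.26, adjusted p = 3.87e-07) led. In COL BRAF the largest were Gbp3, at 0 and 0 counts off and 27 and 18 counts on, and Sp100, at 0 and 1 counts off and 7 and 21 counts on. Of the 3 kinases, Jak2 rose in SI BRAF (0.996 ± 0.13, adjusted p = 8.59e-05) and COL BRAF (0.53 ± 0.16, adjusted p = 0.0388), and Jak1 in COL BRAF (0.49 ± 0.14, adjusted p = 0.0282). The transcription factor Stat3 rose in SI BRAF (0.99 ± 0.13, adjusted p = 9.88e-05). Among the inhibitors Ptpn2, a phosphatase, fell in SI BRAF (-0.54 ± 0.16) and COL BRAF (-0.81 ± 0.12), and Socs3 rose in SI BRAF (0.83 ± 0.29, adjusted p = 0.0444). Of 7 further sensors and adaptors, the DNA sensors Mb21d1 fell in SI BRAF (-0.71 ± 0.26, adjusted p = 0.0486) and Aim2 rose in COL BRAF (0.40 ± 0.13, adjusted p = 0.0433). Beside 31.7% of all genes in SI BRAF, 33.3% of kinases, 16.7% of transcription factors, 66.7% of inhibitors and 14.3% of sensors were called. In COL BRAF the shares were 66.7%, 16.7%, 25% and 14.3% in that order, beside 19.9%. Each role held at most 7 genes, and transcription factors and sensors lay below the background. Of 8 further class II genes tested, Rfxank, a factor of class II promoters, rose (0.88 ± 0.16) and H2-DMa, which helps to load peptides, fell (-1.02 ± 0.33, adjusted p = 0.0327) in SI BRAF. In COL BRAF the thiol reductase Ifi30 fell (-0.64 ± 0.12), and H2-DMb1 was called lower with 13 and 30 counts off and 0 and 0 counts on. The share of class II genes called was 25% in SI BRAF, below the 31.7% of all genes, and 25% in COL BRAF, near the 19.9%.

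Of 15 further class I genes, 6 rose and 2 fell in SI BRAF and 1 rose and 2 fell in COL BRAF, which is 53.3% and 20% beside 31.7% and 19.9% of all genes, so that the share in COL BRAF was at the background. In SI BRAFp53 2 rose and 3 fell (33.3% beside 11.5%), and in COL BRAFp53 3 rose and 3 fell (40% beside 17.7%). In COL BRAF the peptidase Erap1 (-0.71 ± 0.13) and the heavy chain H2-T23 (0.71 ± 0.17) changed most. The heavy chains H2-Q1 (3.17 ± 0.18, adjusted p = 8.88e-08) and H2-Q2 (2.26 ± 0.15, adjusted p = 3.11e-07) led in SI BRAF, H2-Q1 rising from 8.03 and 7.63 to 66.5 and 79.1 CPM. Their responses differed between the tissues (3.97 ± 0.39 and 2.16 ± 0.23, SI minus COL) and between BRAFp53 and BRAF in SI (-2.25 ± 0.24 and -2.15 ± 0.21). The count minimum left 84 of the 95 genes for COL and 80 for SI. Of these, 34 passed in SI BRAF (27 up), 25 in COL BRAF (18 up), 11 in SI BRAFp53 (5 up), 21 in COL BRAFp53 (15 up) and 0 in the p53 arms. These are 42.5%, 29.8%, 13.8% and 25% beside the same shares of all genes, again near the background in SI BRAFp53.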

How the data were processed

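RNA of 24 organoid libraries was sequenced paired-end. By the study's methods and per the labels, the authors trimmed reads with Trimmomatic 0.36, aligned them with STAR 2.5.2b to mm10 and deposited raw gene counts in 1 table per tissue. mm9 is also named in the labels, and the annotation release and the strand setting are not given in the sources used here. From these counts, genes with low counts were removed with filterByExpr, libraries were scaled by TMM, and each comparison was tested with edgeR 4.0.16 (quasi-likelihood test, R 4.3.3) on all genes, with p-values adjusted by Benjamini-Hochberg over all genes tested and called under 0.05. A tissue was fitted as 1 model of its 12 libraries, responses were compared between tissues in 1 model of 24, and off organoids as libraries summed per culture. The study used limma, so limma-voom (limma 3.58.1) was an alternative beside DESeq2 1.42.0, RLE scaling, other count minimums, a replicate block, a genotype term and fits without 1 library or culture. The off comparison without COL p53 off library 2 was chosen after seeing the data. Symbols came from GENCODE M21, which gave a symbol for 45143 of the 45706 identifiers. The scripts were tested on simulated data.

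The genes and lists were chosen with earlier results of these data known. All genes of the set could be named. Of the further pathway genes, the receptors and up to 2 called genes per role with the largest change in the BRAF arms were named, and 1 gene is not reported here. Intervals of the Rsad2 and Zbp1 count ratios cover counting error only, and those of log2 fold changes come from the edgeR fit and its spread between libraries.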

Additional observations from a re-analysis of the deposited data

Results flagged for a closer look

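A test of the difference itself singled out 13 results in which the response to activation differed between cultures or tissues. In SI the response in BRAFp53 lay below that in BRAF by -0.708 for Irf1, -1.61 for Irf7, -1.86 for Ifi27, -0.59 for Ifi35, -0.889 for Tap1, -0.996 for B2m, -0.909 for H2-K1 and -0.653 for H2-D1 on the log2 scale, which is 8 of 32 genes (25%) beside 8.2% of all genes. Between the tissues, the BRAF response in SI minus that in COL was 1.59 for B2m, 0.781 for H2-K1, 0.77 for Stat2 and -2.37 for Oas1a, with 11.8% of the set called beside 10.7% of all genes. The BRAFp53 response differed between the tissues for Ifi27, by -1.24, with 2.94% called beside 3.52%. The shares between the tissues are thus near the background. No cause of these differences was tested, and genotype and donor culture, or tissue, dose, day and medium, cannot be told apart in them.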

How the results depend on the processing

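Over 68 calls with a direction, 802 alternative values were computed, of which 653 kept direction and side of the threshold, 149 kept the direction only and 0 reversed. The 17 calls among 3 cultures have no direction, and 151 of their 201 values passed. With no count minimum the number of genes of the set called was 20 in COL BRAF (11 as reported), 9 in COL p53 (0), 8 for the COL difference between BRAFp53 and BRAF (0), 5 among SI off cultures (2) and 4 for the BRAFp53 difference between tissues (1). With at least 10 counts in every library it was 1 for the COL difference, 1 among SI off cultures and 2 for the BRAFp53 difference between tissues. DESeq2 called 4 in COL p53, 2 for the COL difference, 7 (4 as reported) and 5 for the BRAF and BRAFp53 differences between tissues and 19 between off organoids (12). Limma-voom called 1 among SI off cultures. COL BRAF fitted alone gave 18, and a genotype term in the off comparison 7. A fold of at least 1 on the log2 scale left 1 in COL BRAFp53 (6), 5 in SI BRAFp53 (10), 2 of 8 for the SI difference between BRAFp53 and BRAF and 2 of 4 for the BRAF difference between tissues.

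Leaving out 1 library at a time gave 4 to 12 calls in COL BRAF, 3 to 5 in COL BRAFp53, 0 to 1 in COL p53, 0 to 1 for the COL difference, 5 to 16 among COL off cultures (15), 12 to 17 in SI BRAF, 3 to 6 in SI BRAFp53, 4 to 8 for the SI difference, 0 to 3 among SI off cultures, 2 to 5 for the BRAF and 0 to 2 for the BRAFp53 difference between tissues, and leaving out a culture 6 to 19 between off organoids.

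Replicate numbers of on and off libraries did not pair them, since deviations correlated by -0.0581 to 0.0809. With a replicate block 6 genes differed among COL off cultures, 0 among SI off cultures and 5 for the SI difference, with 11 in COL BRAF, 5 in COL BRAFp53, 16 in SI BRAF and 7 in SI BRAFp53. RLE scaling moved the median of all genes by -0.0553 to 0.038. Nlrc5, Ciita, H2-Aa and Gbp2 held at most 28 counts in any library, where small differences were not detectable. Shares of all genes are not given beside most counts of this section. A shift of the set can thus not be told from a shift of all genes there. The causes of these shifts were not tested.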
